A study of Drosophila melanogaster with 39 samples.

Results

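Small RNAs bound to tagged Piwi were compared between ovarian somatic sheath cells (OSC), a cultured line of somatic cells of the fly ovary, and whole ovaries of *Drosophila melanogaster*. The comparison holds 18 of the 39 libraries of the series. They are 14 OSC libraries and 4 ovary libraries of the 4 Piwi constructs that were sequenced in both tissues, chosen by the construct and tissue in their labels and by no measured value. The study exchanged the specificity loop of Piwi, and the OSC libraries are wt (5 libraries), Ago3, GSS and LD (3 libraries each), against 1 ovary library of each construct. In wt the loop is that of Piwi, in Ago3 it is that of the PIWI protein Ago3, in GSS it is a run of glycine-serine-serine repeats, and in LD the loop is removed and bridged by a glycine linker. Every construct carries an N-terminal FLAG-HA tag, by which the protein and its RNA were immunoprecipitated.

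The groups differ in more than the tissue. OSC, bought as OSS cells, were transfected with the construct and kept their own piwi gene. Ovaries carried a UAS transgene, inserted at random in a w1118 background and driven by Gal4 placed in the piwi locus, so that it is expressed where the piwi promoter is active, in germline and somatic cells alike. The labels give the 4 ovary libraries the genotype Piwi>gal4-Piwi>gal4 with the UAS-FLAG-HA-Piwi transgene. The study's text describes the LD ovaries as heterozygous for this Gal4 allele, which would leave them 1 intact piwi copy, and the disagreement could not be settled from the files. OSC are a single cell line and the ovary is a mixture of cell types, and with 1 ovary library per construct the spread between ovaries of the same genotype was not measured. No table of gene expression was part of the comparison, so the tissue labels could not be checked against marker genes.

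Piwi is the nuclear PIWI protein of *Drosophila* and silences transposons in the chromatin of both germline and somatic cells of the ovary. It is loaded with piRNAs that are cut from long precursors by the endonuclease Zucchini at the mitochondrial surface, with a length set in part by how the 3′ end is trimmed or cut. Somatic cells of the ovary lack the cytoplasmic partners Aub and Ago3 and their ping-pong cycle, in which sense and antisense transposon transcripts are cut in turn, while germline cells have it. The specificity loop lies in the MID domain of Argonaute proteins, where the first nucleotide of the guide RNA is held.

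The loops were exchanged with the primers below, shown because they are the only difference in sequence that the design makes between the constructs, within either tissue. Each line gives the primer 5′ to 3′, and the capitals are the stretch at the start of the primer that the primer table sets apart by case. In site-directed mutagenesis of this kind the tail of a primer carries the replacement, which may share bases with the original, and its end pairs with the template. The gene lies on the minus strand of chromosome arm 2L, from 10982205 to 10987420 of dm6.
Ago3 forward: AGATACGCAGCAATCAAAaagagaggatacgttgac
Ago3 reverse: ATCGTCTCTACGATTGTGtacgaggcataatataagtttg
GSS forward: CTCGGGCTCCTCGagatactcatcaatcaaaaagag
GSS reverse: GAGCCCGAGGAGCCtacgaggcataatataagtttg
LD forward: GGCGGCtactcatcaatcaaaaagagag
LD reverse: GCCGGCgcataatataagtttgggatc

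Raw reads per library numbered 2861749 to 32060726 in OSC libraries, against 6631083 to 24979756 in those of ovary. At this depth the 95% Clopper-Pearson interval of any share of reads by length or mapping reached at most 0.106 percentage points to either side, and it covers counting error only, since reads without molecular identifiers are not independent molecules. The study calls its OSC data 3 biological replicates, while the labels give 5 libraries for wt and do not say that replicates came from separate cultures. The p-values therefore measure the spread between these libraries, and no spread between ovaries of a construct enters them. The read lengths of all 19 pairs of OSC replicates differed, with a chi-square of at least 851 per degree of freedom. At this depth even small differences give such values, so they do not show that the libraries are independent. Each was counted as its own library by assumption. Barcodes that the labels write with a leading NN were used for all 4 ovary libraries, for the 3 LD libraries of OSC and for GSS replicate 3, but for none of the other 10 OSC libraries. For wt and Ago3 the barcode type and the tissue therefore cannot be told apart.

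The share of mapped reads with 1 position in the genome was higher in OSC than in ovary for every construct. Reads that map once and reads that map several times were counted together up to 100 positions, and transposon-derived piRNAs are the usual source of reads with many positions. Of annotated reads, transposons on either strand took 65.7% for wt in OSC, against 66.2% in ovary, and 70.1% for Ago3, against 71.5%. For GSS they took 70.1% in OSC, against 75.8% in ovary, and for LD 48.2%, against 87.7%. In every construct the annotated sets hold different mixes of read length in OSC and ovary. Mapped reads here are of all lengths, and whether transposon reads account for the unique shares was not tested. For wt the unique share was 35.1%, 35.9%, 33.8%, 34.2% and 32.6% in the OSC libraries, against 29.8% in ovary. For Ago3 it was 30.9%, 30.4% and 30.4% in OSC, against 24.2% in ovary. For GSS it was 29.2%, 29.5% and 30.6% in OSC, against 23.6% in ovary. All 14 OSC libraries lay above the ovary library of their own construct, with LD at 28.8%, 30.2% and 28.95% in OSC, against 24.4% in ovary. The smallest gap between an OSC library and its ovary library was 2.81 points, for wt, and the largest was 6.98 points, for GSS.

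**Figure D1:**
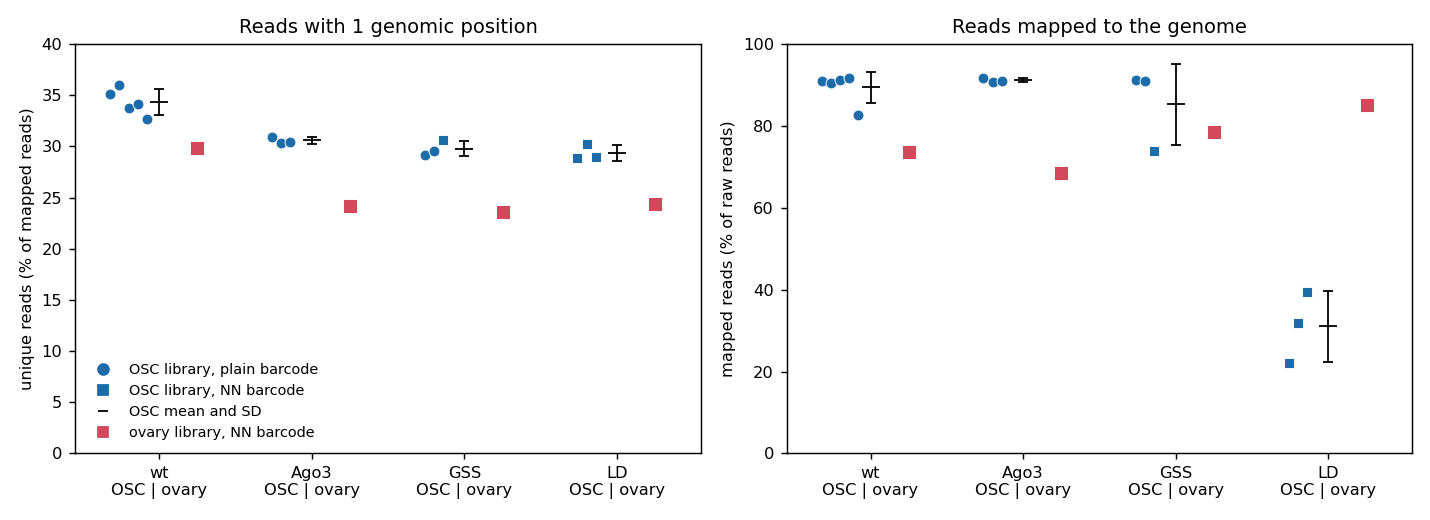
Unique reads as a percentage of mapped reads (left) and mapped reads as a percentage of raw reads (right) for each construct, with OSC libraries in blue, their mean and SD in black and the ovary library in red, and squares for NN barcodes. Unique shares of OSC lie above that of ovary in all 4 constructs, while mapped shares of LD lie at 22.1% to 39.4% in OSC, against 85.2% in ovary.

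Averaged over the 4 constructs the unique share was 5.51 ± 0.918 percentage points higher in OSC (SD over 4 constructs). In the exact permutation test, two-sided, in which the tissue label is moved among the libraries of each construct, this gave p = 0.0026, the smallest that the 384 arrangements allow, and an adjusted p of 0.0078 over the 3 mapping measures. By construct, from the largest difference down, Ago3 gave 6.41 points, GSS 6.16, LD 4.99 and wt 4.50. Leaving out any 1 OSC library moved the mean only between 5.40 and 5.62 points. Among the libraries with NN barcodes alone (GSS replicate 3 and the 3 LD libraries in OSC, with the GSS and LD ovary libraries) it was 5.98 points, where an exact test cannot go below p = 0.13. The order of the constructs was similar within each tissue in that wt was highest: its lowest OSC library, 32.6%, lay above the highest OSC library of the other constructs, 30.9%, and its ovary library lay above the other 3 ovary libraries. Against raw reads instead of mapped reads, LD turned. The unique share of raw reads was then higher in all 11 OSC libraries of the other constructs, with a difference of 11.3 points for Ago3, 8.73 for wt and 6.79 for GSS, but 9.12% for LD in OSC, against 20.7% in ovary, lower in 3 of 3 libraries. Its mean difference was 3.80 points (exact permutation test, adjusted p = 0.648).

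Mapped reads as a share of raw reads separated the tissues in opposite directions. The wt libraries mapped at 91.0%, 90.5%, 91.2%, 91.7% and 82.6% in OSC, against 73.7% in ovary. The Ago3 libraries mapped at 91.8%, 90.8% and 90.9% in OSC, against 68.6% in ovary. For GSS the values were 91.1%, 90.9% and 73.8% in OSC, against 78.5% in ovary, so that replicate 3 fell below the ovary library. For LD, the Piwi without a loop, only 22.1%, 31.8% and 39.4% of raw reads mapped in OSC, against 85.2% in ovary. The authors removed structural RNAs before mapping to the genome, so the raw reads not counted as mapped can include these. What those reads are was not tested, and the share is not one of RNAs bound to the protein.

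The mean tissue difference in the mapped share over the 4 constructs was thus −2.27 ± 35.2 points (SD over constructs, exact permutation test, adjusted p = 0.997). Without LD it was 15.0 points higher in OSC over the other 3 constructs (exact permutation test, adjusted p = 0.0208). Of the OSC libraries then left, only GSS replicate 3 carries an NN barcode, as every ovary library does. It mapped at 73.8%, against 78.5% in ovary. In the NN barcodes alone, which leave GSS and LD, the mean difference was −29.4 points (smallest possible p of 0.13 in the exact test). Barcode type and tissue were therefore not separated in the 15.0 points. The tissue difference of LD less that of the other constructs was −69.3 points, which no other assignment of the LD label reached (exact permutation test over 1456 assignments, two-sided, p = 0.00069, adjusted p = 0.0021 over 3 comparisons). LD was singled out with earlier results of these data known, so this was not a comparison planned blind to them. All LD libraries of OSC carry NN barcodes, as only GSS replicate 3 does among the other OSC libraries compared. Within the NN barcodes LD lay below GSS by a difference of −49.4 points, at a smallest possible p of 0.13 in the exact test. The reads of piRNA length, 24 to 29 nt, made up 9.01%, 15.3% and 12.1% of raw LD reads in OSC, against 59.1% in ovary. For wt the same share of raw reads ranged from 65.7% to 77.4% in OSC, against 53.7% in ovary.

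Among mapped reads, those of 20 to 30 nt, the lengths tabulated, followed the same split. They were 92.8% to 94.5% of mapped reads in the wt OSC libraries, against 78.9% in ovary, and 94.4% to 94.6% in the Ago3 OSC libraries, against 78.2% in ovary. For GSS they were 93.6%, 93.1% and 82.4% in OSC, against 83.1% in ovary. For LD they were 56.3%, 54.8% and 42.0% in OSC, against 89.7% in ovary. The mean difference of −0.24 points over 4 constructs did not pass the threshold (exact permutation test, adjusted p = 0.997). The lengths of the remaining mapped reads were not tabulated, so shares of length are given below out of the 20 to 30 nt reads.

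Reads bound to wt, Ago3 and GSS were on average shorter in OSC than in ovary, and reads bound to LD longer, but over the 4 constructs the difference did not pass the test. For wt the mean length was 25.77, 25.70, 25.87, 24.89 and 26.76 nt in OSC, against 26.55 nt in ovary. For Ago3 it was 25.82, 25.78 and 26.01 nt in OSC, against 26.95 nt in ovary, the only one of these 3 constructs in which every OSC library lay below the ovary library. For GSS it was 25.79, 25.05 and 26.76 nt in OSC, against 26.72 nt in ovary. The LD reads averaged 25.24, 26.20 and 25.10 nt in OSC, against 25.04 nt in ovary, so that all 3 OSC libraries lay above it.

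The mean length of OSC libraries was 25.8 ± 0.666 nt in wt (SD, n = 5), with Ago3 at 25.9 ± 0.123 nt, GSS at 25.9 ± 0.861 nt and LD at 25.5 ± 0.600 nt (SD, n = 3 each). OSC minus ovary was −1.08 nt for Ago3, −0.85 nt for GSS and −0.75 nt for wt, but 0.47 nt for LD. Over the 4 constructs the difference was −0.55 ± 0.696 nt (SD over constructs, exact permutation test, p = 0.180, adjusted p = 0.254 over 5 length summaries), and 9 of 14 OSC libraries lay below their ovary library. The LD difference exceeded that of the others by 1.37 nt, which was within the range that moving the LD label gave (exact permutation test, adjusted p = 0.345). In the NN barcodes alone the mean difference in length turned to 0.26 nt, with GSS replicate 3 at 26.76 nt in OSC, against 26.72 nt in ovary.

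**Figure D2:**
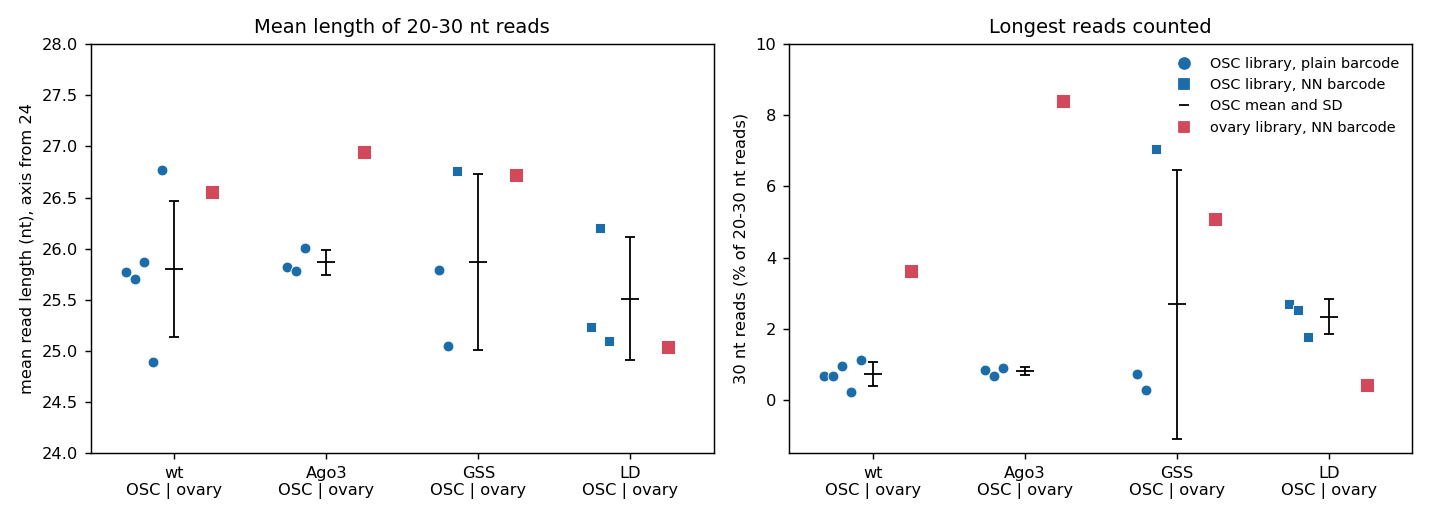
Mean read length in nt (left, axis from 24 nt) and the 30 nt share of 20 to 30 nt reads in percent (right) for each construct, with OSC libraries in blue, their mean and SD in black, the ovary library in red and squares for NN barcodes. In Ago3 the OSC libraries lie at 25.78 to 26.01 nt, against 26.95 nt in ovary, and in LD the OSC libraries lie above ovary in both panels.

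Long reads, 27 to 30 nt, were 36.4%, 36.2%, 38.9%, 22.1% and 63.1% of wt reads in OSC, against 52.6% in ovary. They were 38.6%, 37.4% and 42.0% of Ago3 reads in OSC, against 61.4% in ovary. For GSS they were 38.2%, 24.8% and 58.6% in OSC, against 55.7% in ovary, and for LD 32.7%, 47.6% and 29.3% in OSC, against 25.0% in ovary. The mean difference was −9.74 ± 14.7 points for 27 to 30 nt, 4.76 ± 5.05 points for 20 to 23 nt and −2.01 ± 4.17 points for 24 to 29 nt (SD over constructs), with adjusted p-values of 0.254, 0.254 and 0.484 in the exact permutation test. The SD of length within a library differed by 0.14 ± 0.132 nt (adjusted p = 0.254 in the same permutation test). This direction turned in narrower windows of length, to −0.088 nt within 22 to 30 nt and to −0.118 nt within 24 to 29 nt (exact permutation test, adjusted p = 0.0365).

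**Figure D3:**
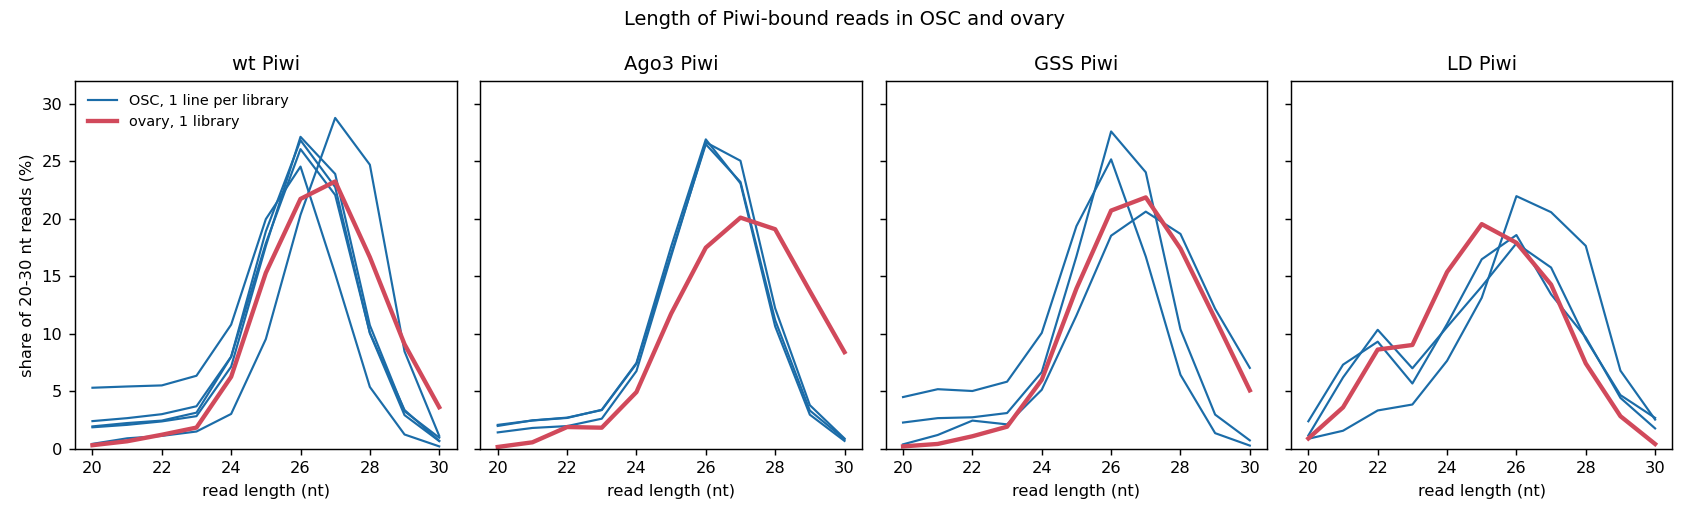
Share of 20 to 30 nt reads at each length in percent, 1 panel per construct, with each OSC library as a thin blue line and the ovary library as a thick red line. The 3 OSC profiles of Ago3 nearly coincide and the ovary profile lies to their right, while at most lengths the ovary profile of wt and GSS lies within the range of the OSC libraries (7 of 11 each) and the ovary profile of LD has its maximum at 25 nt.

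The most frequent length was 26 nt in 12 of the 14 OSC libraries and 27 nt in wt replicate 5 and GSS replicate 3. In ovary it was 27 nt for wt, Ago3 and GSS and 25 nt for LD. Of the 11 single lengths none passed the test between the tissues after adjustment (0% at an adjusted p of 0.05 in the exact permutation test), and 3 did at an unadjusted p of 0.05 (27.3%), namely 20, 26 and 29 nt. The 20 nt share was higher in OSC by 1.63 points (p = 0.0443, permutation test, 13 of 14 libraries), the 26 nt share by 4.26 points (p = 0.0286, permutation test, 11 of 14 libraries), and the 29 nt share was lower in OSC, with a difference of −4.73 points (p = 0.0391, permutation test, 10 of 14 libraries). The adjusted p was 0.162 for each of them in that exact test.

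The ovary library lay outside the range of the OSC libraries at 11 of 11 lengths for Ago3 (100%), at 4 of 11 for wt and also for GSS (36.4% each) and at 6 of 11 for LD (54.5%). With 3 OSC libraries, 1 construct alone cannot give an exact p below 0.25. A further library of the same kind would also often lie outside a range of 3 or 5 libraries. These counts alone therefore do not mark a tissue difference, and they were not tested. The lengths outside in 3 of the 4 constructs were 20, 21, 23, 29 and 30 nt.

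At the short end the OSC libraries held more of the 20 and 21 nt reads. The 20 nt share of wt ranged from 0.429% to 5.31% in OSC (median 1.95%), against 0.311% in ovary. It was 1.99%, 2.08% and 1.43% for Ago3 in OSC, against 0.159% in ovary, and 2.28%, 4.50% and 0.387% for GSS in OSC, against 0.209% in ovary. For LD the OSC libraries held 1.159%, 0.873% and 2.39%, on both sides of the 0.9005% in ovary. The 21 nt share lay above the ovary library in 13 of 14 OSC libraries too, with a mean difference of 1.93 points (exact permutation test, adjusted p = 0.166). As differences of log2 odds, which weigh rare lengths more, 20 nt (2.41) and 21 nt (1.67) passed the threshold (adjusted p = 0.0430 for both, exact permutation test) and the other 9 lengths did not. The 23 nt share of LD was 7.002%, 3.85% and 5.68% in OSC, against 9.03% in ovary, and ran against Ago3 with 3.37%, 3.39% and 2.62% in OSC, against 1.84% in ovary.

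At the long end LD ran against wt and Ago3, and the GSS libraries lay on both sides of ovary. The 30 nt share of wt ranged from 0.212% to 1.13% in OSC (median 0.683%), against 3.62% in ovary. For Ago3 it was 0.840%, 0.685% and 0.896% in OSC, against 8.41% in ovary, the highest of the 18 libraries. For GSS it was 0.733% and 0.279% in replicates 1 and 2 and 7.04% in replicate 3 of OSC, against 5.09% in ovary. The LD libraries held 2.69%, 2.54% and 1.77% in OSC, against 0.417% in ovary.

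The 29 nt share was 1.24% to 8.47% for wt in OSC, against 9.10% in ovary, and 3.33%, 2.97% and 3.80% for Ago3 in OSC, against 13.7% in ovary. For GSS it was 2.97%, 1.36% and 12.2% in OSC, against 11.3% in ovary, with replicate 3 above ovary. For LD it was 4.67%, 6.80% and 4.43% in OSC, against 2.84% in ovary. The 24 and 25 nt shares of LD lay below ovary in all 3 OSC libraries, at 7.66% to 10.9% in OSC, against 15.4% in ovary, for 24 nt, and at 13.1% to 16.5% in OSC, against 19.5% in ovary, for 25 nt. For Ago3 both lay above ovary in all 3.

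**Figure D4:**
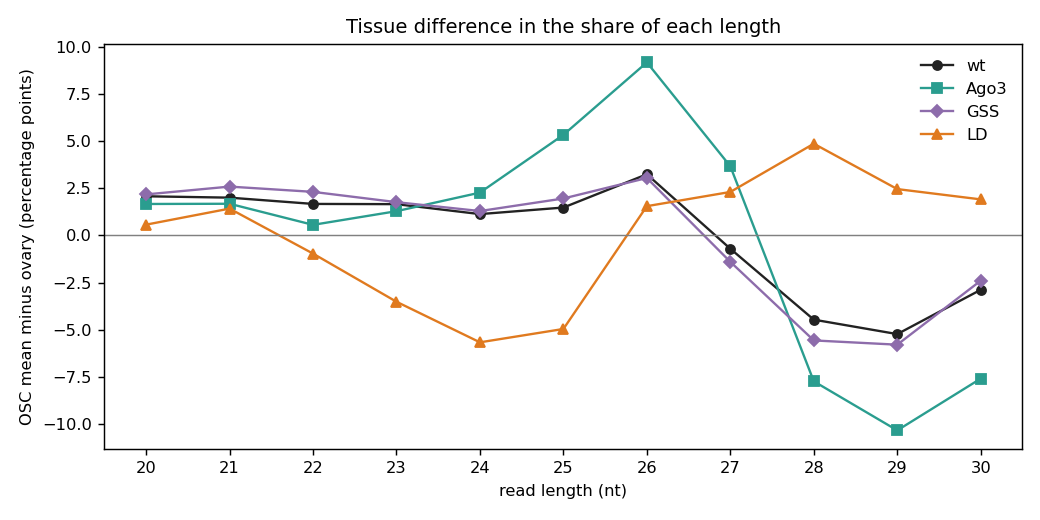
OSC mean minus ovary in percentage points at each read length, with 1 line per construct. At 29 nt the difference is −5.24 points for wt, −10.4 for Ago3 and −5.80 for GSS, and 2.46 points for LD.

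Whole length profiles were compared by the sum of the absolute differences in share over the 11 lengths. For Ago3 the OSC libraries lay 48.6 to 53.9 points from the ovary profile and 2.45 to 9.16 points from each other. For wt the distances were 27.9 to 61.2 points from OSC to ovary and 4.98 to 82.1 points between OSC libraries. For GSS they were 13.3 to 61.8 points and 31.6 to 67.5 points, with replicate 3 nearest to ovary, and for LD 23.6 to 53.3 points and 11.7 to 43.3 points. Averaged over constructs, distances to ovary exceeded those within OSC by 9.46 points (one-sided exact permutation test, p = 0.164), and without Ago3 the difference was −2.44 points. Only for Ago3, of the 4 constructs, did the smallest distance to ovary exceed the largest distance within OSC.

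The origin of the reads was tabulated for 1 OSC library and the ovary library of each construct, in 7 categories: transposons, exons and introns, each sense or antisense, and the remainder. Because there is 1 library per tissue, an exact sign-flip test over the 4 constructs cannot go below p = 0.13, and the intervals (at most 0.241 points to either side, Clopper-Pearson) cover counting error only. The categories more than 1.5-fold apart were 4 of 7 for wt (57.1%), 5 of 7 for Ago3 (71.4%), 4 of 7 for GSS (57.1%) and 6 of 7 for LD (85.7%). Only sense transposon and sense exon reads, 2 of 7 (28.6%), were past that fold in the same direction in 4 of 4 constructs.

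The annotated reads are not the same kind of set in every library. In the wt, Ago3 and GSS ovary libraries their total equals all mapped reads, but in the LD ovary library 11906858 annotated reads equal its 24 to 29 nt reads, which are 69.4% of mapped reads. The annotated LD library of OSC is named replicate 1, while its 2736859 reads equal the mapped reads of replicate 2. The annotated Ago3 library of OSC, also named replicate 1, holds 28981364 reads, 99.6% of the mapped reads of replicate 2 and more than replicate 1 mapped. The wt and GSS totals are 100.3% and 99.5% of replicate 1. The paper restricts its annotation to reads of 24 to 29 nt, which only the LD ovary total equals. Among the mapped reads that the wt totals come closest to, 94.0% were 20 to 30 nt in OSC, against 78.9% in ovary. For Ago3 these were 94.6% in OSC, against 78.2% in ovary, and for GSS 93.6%, against 83.1%. The annotated sets thus differ in length between OSC and ovary for every construct. The part of these differences in the comparisons was not tested.

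Sense transposon reads were rarer in OSC in every construct. They were 4.95% of annotated wt reads in OSC, against 11.9% in ovary, and 4.59% of Ago3 reads in OSC, against 24.6% in ovary. They were 3.78% for GSS in OSC, against 21.3% in ovary, and 3.16% for LD in OSC, against 28.9% in ovary. Ovary thus held 9.14-fold as much as OSC for LD, 5.63-fold for GSS, 5.36-fold for Ago3 and 2.41-fold for wt. The mean difference was −17.5 ± 7.85 points (SD over constructs, exact permutation test, p = 0.13, the smallest possible).

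Antisense transposon reads were the largest category in all 8 annotated libraries. They made up 60.8% for wt in OSC, against 54.3% in ovary, 65.5% for Ago3 in OSC, against 47.0% in ovary, and 66.3% for GSS in OSC, against 54.6% in ovary. For LD they made up 45.1% in OSC, against 58.8% in ovary. The direction for LD turned once the remainder was left out, at 67.2% of the other 6 categories in OSC, against 63.6% in ovary.

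Among transposon reads alone, which does not depend on the remainder, the antisense strand took 94.6% for GSS, 93.4% for Ago3, 93.4% for LD and 92.5% for wt in OSC. In ovary the shares were 72.0% for GSS, 65.6% for Ago3, 67.1% for LD and 82.0% for wt. The OSC values lay within a range of 2.14 points and the ovary values within 16.4 points. OSC exceeded ovary by 21.8 ± 7.88 points (SD over constructs) in 4 of 4 constructs, at the smallest possible p of 0.13 in the exact permutation test.

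**Figure D5:**
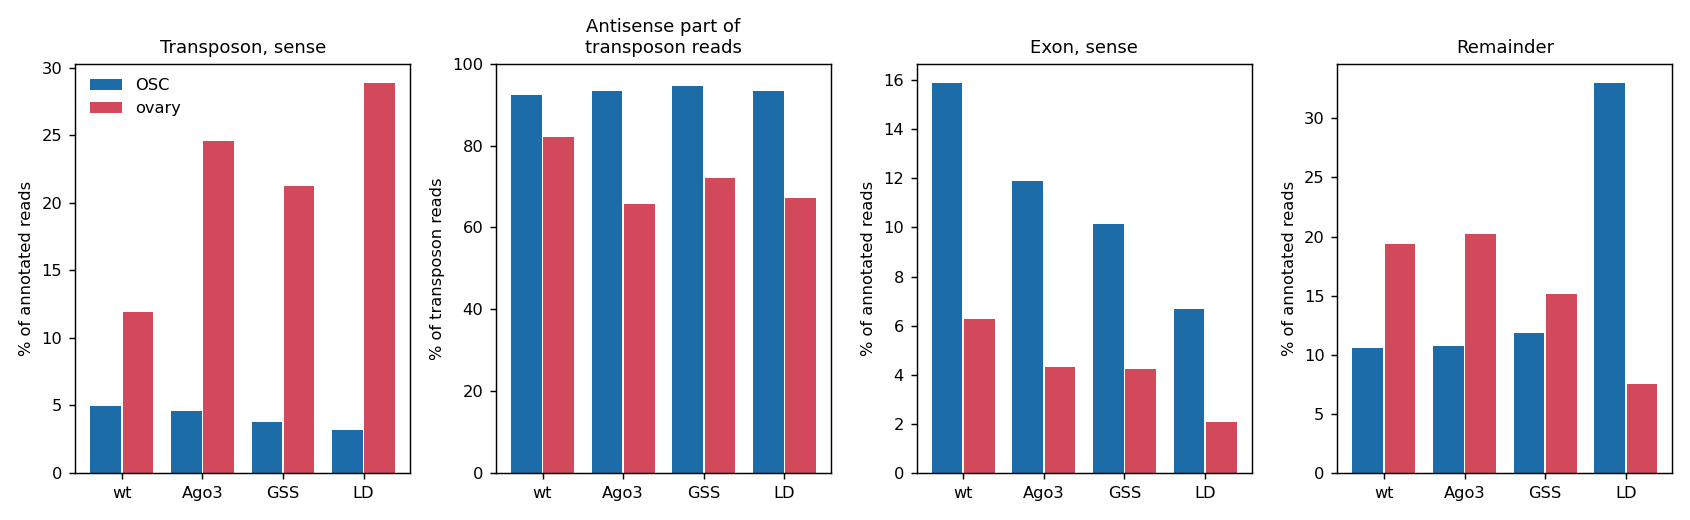
Bars from 0 show, for the annotated OSC library (blue, left) and the ovary library (red, right) of each construct, the percentage of annotated reads in sense transposons, sense exons and the remainder, and the antisense percentage of transposon reads. Sense transposon reads are lower and sense exon reads higher in OSC for all 4 constructs, and the remainder is higher in OSC for LD only.

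Sense exon reads, which have the strand of the gene's messenger RNA, were 15.9% for wt in OSC, against 6.26% in ovary, and 11.9% for Ago3 in OSC, against 4.30% in ovary. They were 10.2% for GSS in OSC, against 4.25% in ovary, and 6.68% for LD in OSC, against 2.08% in ovary. Relative to ovary OSC held 3.22-fold as much for LD, 2.76-fold for Ago3, 2.53-fold for wt and 2.39-fold for GSS (mean difference 6.93 ± 2.17 points, SD over constructs, exact permutation test, p = 0.13). Per 100 antisense transposon reads there were 26.1 sense exon reads for wt in OSC, against 11.5 in ovary, and 14.8 for LD in OSC, against 3.53 in ovary.

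Antisense exon reads were below 1.5% in all 8 libraries and had no common direction, at 0.875% for wt in OSC, against 1.49% in ovary, and 1.31% for LD in OSC, against 0.0649% in ovary. The sense strand took 94.8% of exon reads for wt in OSC, against 80.8% in ovary, 93.9% for Ago3 in OSC, against 94.1% in ovary, and 93.3% for GSS in OSC, against 90.2% in ovary. For LD it took 83.6% in OSC, against 97.0% in ovary.

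Intron reads were higher in OSC as a whole, but by little for wt. Both strands together were 6.99% for wt in OSC, against 6.63% in ovary, 6.55% for Ago3 in OSC, against 3.62% in ovary, and 7.13% for GSS in OSC, against 4.33% in ovary. For LD they were 10.8% in OSC, against 2.64% in ovary. Sense intron reads alone were 4.44% for wt in OSC, against 4.73% in ovary, the 1 construct in which OSC was lower. Antisense intron reads lay between 2.13% and 3.23% in OSC, against 0.823% to 1.90% in ovary, higher in OSC in 4 of 4 constructs.

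The remainder, which matched none of the other categories, ran against the tissue for LD. It was 10.5% for wt in OSC, against 19.4% in ovary, 10.7% for Ago3 in OSC, against 20.3% in ovary, and 11.9% for GSS in OSC, against 15.1% in ovary. For LD it was 33.0% in OSC, against 7.50% in ovary. The LD library of OSC whose mapped total equals the annotated reads had 54.8% of its mapped reads at 20 to 30 nt, and the LD ovary annotation holds 24 to 29 nt reads only, so the remainder covers different lengths in the 2 tissues. For wt, Ago3 and GSS, too, the mapped reads that the totals come closest to held a smaller 20 to 30 nt share in ovary. What part this has in the remainder was not tested.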

How the data were processed

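Small RNAs bound to FLAG-HA-Piwi were sequenced. The authors removed adapters with cutadapt, removed structural RNAs, mapped reads to dm6 with STAR, and deposited counts of raw, unique and multimapping reads (up to 100 positions), counts by length from 20 to 30 nt, and counts by annotation. The deposited values are raw read counts per library, without normalization, and 0 columns stayed unmatched. Libraries were size-selected during preparation, which can move length shares.

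Shares and mean lengths were computed per library in Python 3.11.15 with numpy 2.4.6 and scipy 1.17.1, and drawn with matplotlib 3.10.9. Tissues were compared by exact permutation of the tissue label within constructs (384 arrangements, two-sided, threshold 0.05), with Benjamini-Hochberg adjustment within 5 length summaries, 11 lengths, 3 mapping measures and 3 LD comparisons. Annotation categories were described by a fold of 1.5. All lengths, mapping measures and categories are reported, and single lengths are named where ovary lies outside the OSC range in at least 3 of 4 constructs or where LD runs against the others. Alternatives left out each library or construct, changed the scale, the window, the denominator or the barcode type. The permutation tests of tissue and of LD were run on simulated data, while the profile distance test and the sign-flip test were not. The libraries, measures and tests were chosen with earlier results of these data known. Total RNA libraries and the authors' plotted values were not used here.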

Additional observations from a re-analysis of the deposited data

Results flagged for a closer look

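Among the 5 wt libraries of OSC, replicate 5 stood apart from the other 4 in 3 of the 19 measures examined, by a gap that Dixon's criterion passes by chance in about 1 of 20 groups. It mapped 82.6% of raw reads, against 90.5% in the nearest library, held 9.54% of 25 nt reads, against 17.6% in the nearest, and 24.7% of 28 nt reads, against 10.7% in the nearest.

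The tissue difference of LD in the mapped share lay apart from that of the other constructs, at −69.3 points. Other LD differences were marked because all OSC libraries of LD lay on one side of their ovary library and all those of another construct on the other, and these were not tested. With so few OSC libraries per construct, a single ovary library often lies to one side of all of them. All OSC libraries of LD carry NN barcodes, those of wt and Ago3 carry none, and of GSS only replicate 3 does. Against wt and Ago3 the loop and the barcode type therefore cannot be told apart. Against Ago3, the tissue difference of LD less that of Ago3 was 33.6 points for the 27 to 30 nt share, −4.81 points at 23 nt, −7.95 at 24 nt, −10.3 at 25 nt, 12.6 at 28 nt, 12.8 at 29 nt and 9.52 at 30 nt. Against wt it was 7.70 points at 29 nt and 4.80 at 30 nt, and against GSS −5.29 points at 23 nt.

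The 20 to 30 nt share of mapped reads differed in this way by −53.6 points from wt and by −54.9 from Ago3, and the 24 to 29 nt share of raw reads by −66.8 points from wt and by −77.3 from Ago3. The unique share of raw reads differed by −20.4 points from wt, −22.9 from Ago3 and −18.4 from GSS. Mean length also ran one way in all LD libraries and the other way in all Ago3 libraries. There LD was tested only against wt, Ago3 and GSS together, which did not pass, and not against Ago3 alone.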

How the results depend on the processing

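Of 281 repeats of the results under alternatives, 263 kept direction and side of the threshold. Without LD, only GSS replicate 3 of the OSC libraries has an NN barcode. There the mapped share turned to 15.0 points and the 20-30 nt share of mapped reads to 12.6 points. That share also turned to 1.58 points with medians of the OSC libraries and 0.55 in log2 odds, where the mapped share turned to 0.26, and ranged from −0.89 to 0.89 points when 1 library was left out, positive without GSS replicate 3 (0.68) and without LD replicate 3 (0.89). Without Ago3 the profile distance turned to −2.44. With NN barcodes only, mean length turned to 0.26 nt and the 27-30 nt share to 7.22 points, while the unique share (5.98 points) and the LD difference in the mapped share (−49.4 points) lost the threshold because the smallest p there is 0.13. The unique share of raw reads was 3.80 points and did not pass. In the window of 22-30 nt the 24-29 nt share turned to 1.17 points and the SD of length to −0.088 nt, and in that of 24-29 nt the SD turned to −0.118 nt (exact permutation test, adjusted p = 0.0365). In log2 odds 2 lengths passed instead of 0, and without wt 4 categories were past the fold instead of 2. Except where a smaller design is named, the cause of these changes was not tested. No paired analysis was possible because the replicate numbers of OSC have no counterpart in ovary, so that the construct alone, which the tests keep, links the tissues. Depth limits the shares only to the intervals given, and the spread between ovaries of one construct was not measured.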

Other observations

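Set against all 20 OSC libraries of the series, which add 6 other loops with 1 library each, 3 of the 4 ovary libraries lay below every OSC library in the unique share. OSC ranged from 27.7% to 35.9% of mapped reads, against 24.2% for Ago3, 23.6% for GSS and 24.4% for LD in ovary, which lay below all 20, while the wt ovary library at 29.8% lay below 15 of 20. In the 10 annotated OSC libraries the antisense strand took 92.1% to 94.6% of transposon reads, against 65.6% to 82.0% in the 4 ovary libraries. Sense exon reads took 6.68% to 15.9% of annotated reads in OSC, against 2.08% to 6.26% in ovary, and antisense intron reads took 2.13% to 3.23% in OSC, against 0.823% to 1.90% in ovary. Of the 7 categories, the ranges of the tissues were apart for 3 (sense transposon, sense exon and antisense intron) and overlapped for the other 4, over different loops and with no test.

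The length profile nearest to an ovary library was not always one of its own construct. The Ago3 ovary profile lay 6.95 points from GSS replicate 3 of OSC and the wt ovary profile lay 16.4 points from LD replicate 2, while the GSS ovary profile was nearest to GSS replicate 3 and the LD ovary profile to LD replicate 3. All 4 nearest profiles are of an OSC library with an NN barcode, a type that 4 of the 20 OSC libraries have.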
